A study of Mus musculus with 16 samples.

Results

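The cell division machinery of the liver was examined through 44 genes of the cell cycle and mitosis, on 16 one-colour Agilent arrays of mouse liver RNA, 1 array per mouse. The genes were listed by name, and 41 of the 44 had a probe, out of 19096 genes with a named probe. No probe matched Ccnd1, Rrm2 or Prc1. All mice were male and had received N-diethylnitrosamine (DEN), a liver carcinogen, once at 5 weeks of age and 90 mg/kg, so that no group was free of carcinogen. WT mice were C57BL/6J, and KO mice were null for *Gadd45b*, a stress-induced gene. Mice of the DEN + PB groups drank phenobarbital (PB), which promotes liver tumours, at 0.5 g/l from 7 weeks of age. Livers were taken at 57 weeks, from regions outside tumours, with 4 mice of each genotype given DEN alone and 4 given DEN + PB. The stock name of the KO line carries a strain besides C57BL/6, and strain and genotype cannot be told apart here.

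Most hepatocytes of an adult liver are out of the cell cycle, and they can re-enter it after injury or loss of tissue. Entry into S phase is driven by cyclin-dependent kinases (CDK) with D and E cyclins and by E2F factors, which switch on the genes of DNA replication. Later, cyclin A and B with Cdk1, the factor FoxM1 and the Polo and Aurora kinases take cells through G2 and mitosis, and ubiquitin ligases destroy their substrates at exit. The genes of G2 and mitosis are transcribed late in the cycle, through CHR elements (cell cycle genes homology regions) and CCAAT boxes in their promoters, while many replication genes carry E2F elements.

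The promoter windows of the members were compared with this background, using the RefSeq table of build GRCm38.p6, which held 36 of the 44 genes. Each window ran from 250 bases before to 50 bases after the gene's start. Searched on both strands, the CHR element was TTTGAA or TTTAAA, the E2F element was TTTGGCGC, TTTCCCGC, TTTCGCGC or TTTGCCGC, and the CCAAT box was CCAAT. Of the 18 members with a window in the 3 mitotic role lists described next, 15 (83.3%) held a CHR element, against 30.6% of all 27025 genes in the table. Of these 18, 14 (77.8%) held both a CHR element and a CCAAT box, against 12.2% of all genes. Of the 18 members with a window in the G1/S, replication and nucleotide lists, 7 (38.9%) held an E2F element, against 2.60% of all genes, and 7 (38.9%) held a CHR element. In these early lists, 11 (61.1%) held a CCAAT box, against 41.1% of all genes. Both a CHR element and a CCAAT box were held by 5 (27.8%), also above the 12.2% of all genes. These matches are letters in a window and were not tested as sites.

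The 150 bases before the start are shown for 5 mitotic genes with a large excess on a single array, described in the following paragraphs, and for a pair of replication genes as a contrast. They were picked after their values were seen, and the capitals mark matches of the 3 elements on either strand.
Ube2c: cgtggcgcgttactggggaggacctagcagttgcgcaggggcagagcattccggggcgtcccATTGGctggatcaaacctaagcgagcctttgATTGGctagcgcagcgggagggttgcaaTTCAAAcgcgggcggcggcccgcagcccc
Ccnb1: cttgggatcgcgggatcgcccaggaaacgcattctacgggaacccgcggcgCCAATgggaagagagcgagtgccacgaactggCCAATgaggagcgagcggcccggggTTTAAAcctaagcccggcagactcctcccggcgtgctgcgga
Plk1: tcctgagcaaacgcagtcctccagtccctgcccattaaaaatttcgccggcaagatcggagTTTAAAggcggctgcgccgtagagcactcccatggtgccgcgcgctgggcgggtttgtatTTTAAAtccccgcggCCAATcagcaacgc
Cdk1: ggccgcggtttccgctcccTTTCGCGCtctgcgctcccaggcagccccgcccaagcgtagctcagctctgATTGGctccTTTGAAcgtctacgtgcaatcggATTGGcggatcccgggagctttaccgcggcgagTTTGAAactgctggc
Cdc20: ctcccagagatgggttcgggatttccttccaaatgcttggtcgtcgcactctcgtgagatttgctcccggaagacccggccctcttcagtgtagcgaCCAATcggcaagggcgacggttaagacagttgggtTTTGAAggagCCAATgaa
Mcm5: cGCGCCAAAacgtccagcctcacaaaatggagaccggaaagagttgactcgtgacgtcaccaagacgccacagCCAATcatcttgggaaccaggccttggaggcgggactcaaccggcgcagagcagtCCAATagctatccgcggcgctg
Mcm6: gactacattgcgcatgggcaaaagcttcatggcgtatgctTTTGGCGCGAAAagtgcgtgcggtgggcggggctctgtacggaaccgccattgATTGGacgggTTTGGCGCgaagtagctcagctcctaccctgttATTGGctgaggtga

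These windows lie at chr2:164769779-164769928 on the plus strand for *Ube2c*, chr13:100786487-100786636 on the minus strand for *Ccnb1*, chr7:122159285-122159434 on the plus strand for *Plk1* and chr10:69352913-69353062 on the minus strand for *Cdk1*. They lie at chr4:118437344-118437493 on the minus strand for *Cdc20*, chr8:75109359-75109508 on the plus strand for *Mcm5* and chr1:128359706-128359855 on the minus strand for *Mcm6*. The first base of the CHR element was at -29 in *Ube2c*, at -42 in *Ccnb1*, at -89 and -29 in *Plk1*, at -71 and -15 in *Cdk1* and at -18 in *Cdc20*, counted from the start. No CHR letters occurred in the windows shown for *Mcm5* and *Mcm6*. In *Mcm6*, the E2F matches at -110 and -106 overlap on opposite strands, and a further match lies at -47.

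A signal is given below as the log2 of the processed intensity minus the log2 of the array's 75th percentile, for the brightest probe of a gene, and levels of different genes are not compared because each probe has its own response. That percentile lay between 137 and 294, and the share of spots well above background between 58.3% and 67.7%. Both probes of *Gadd45b* were detected in 8 of 8 WT livers and 0 of 8 KO livers. The 7 hepatocyte markers with a probe were well above background on every array. WT DEN replicate 3 stood apart in the series, holding the highest signal of 16 for 20.5% of all genes. Of the 41 members, 28 were well above background on all 16 arrays. The filter for testing, all 4 arrays of at least 1 group, let 33 through, 5 of which (Cdk1, Foxm1, Bub1b, Cdc45 and Top2a) were dim on some arrays. The other 8 (Ccne2, Cdk2, Cdc6, Ccnb1, Aurkb, Melk, Ttk and Kif11) were not tested.

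Each array was first summarised by the mean, over the 41 members, of the log2 signal minus the member's median over the 16 arrays. KO DEN replicate 4 had the highest mean, 1.40. WT DEN + PB replicate 4 followed with 0.59, and KO DEN + PB replicate 1 with 0.29. The other 13 arrays lay at or below 0.22, the lowest being KO DEN replicate 1 at -0.41. For WT the group mean was -0.11 ± 0.20 (SD, n = 4) with DEN and 0.13 ± 0.35 with DEN + PB. For KO it was 0.23 ± 0.81 with DEN and 0.02 ± 0.19 with DEN + PB, and the SD of the KO DEN arrays was wider than any difference between group means. Normexp background correction lowered the mean of KO DEN replicate 4 to 0.55 (rank 3 of 16), and to 0.58 (rank 1) when spots with a marked local background were left out. The mean of WT DEN + PB replicate 4 was then 0.25 (rank 4) and 0.28 (rank 2), with KO DEN + PB replicate 3 at 0.27 in the second case. With the deposited table without scaling, WT DEN + PB replicate 4 was at 0.28 (rank 3), so its second place depended on the processing. KO DEN replicate 4 held the highest signal of 16 for 23 of the 41 members (56.1%), against 6.29% of all genes, and 22 of these 23 were well above background there. With that array set aside, WT DEN + PB replicate 4 was the highest of 15 for 20 members. Over all 16 arrays it was the highest for 5 members (12.2%), against 9.49% of all genes. The share of all genes over 15 arrays was not computed. The 2 arrays were singled out after their values were seen, and these counts are a description.

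**Figure D1:**
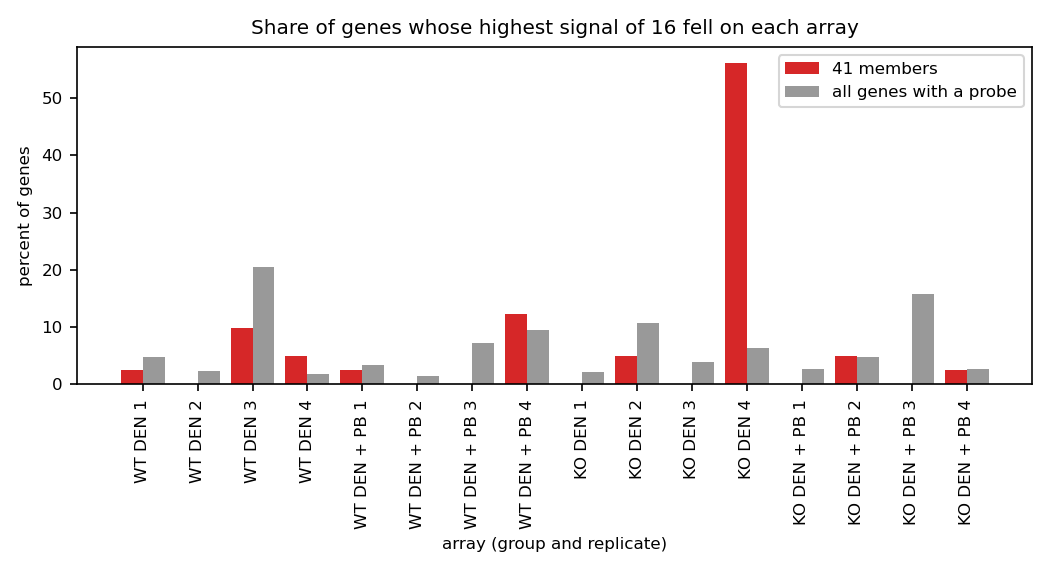
Percent of genes (vertical axis) whose highest signal of 16 fell on each array (horizontal axis), for the 41 members (red) and for all genes with a probe (grey). The red bar of KO DEN 4 stands at 56.1%, and the tallest grey bar is that of WT DEN 3 at 20.5%.

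The excess on KO DEN replicate 4 was largest in the lists of the late cell cycle. Its mean deviation was 2.75 for the 9 G2/M cyclins, kinases and *Foxm1*, 1.98 for the 5 genes of the spindle checkpoint and mitotic exit, and 2.25 for the 8 genes of chromosome, spindle and cytokinesis. For the early cycle it was 0.34 for the 6 G1 and G1/S drivers, 0.18 for the 10 genes of replication licensing and fork, and 0.34 for the 3 genes of nucleotide supply. The means of the G1/S and nucleotide lists were, though small, also the highest of the 16 arrays, with WT DEN replicate 1 next at 0.25 in both. That of the replication list was not. All 9 G2/M genes were highest on this array, as were 7 of 8 chromosome genes and 4 of 5 checkpoint genes, 1 of which, *Ttk*, was well above background on 0 arrays. In the early lists, 1 gene each was highest there, *Ccne1* of 6, *Mcm5* of 10 and *Tk1* of 3. A signal at least 2-fold above the next array was found for 8, 3 and 6 genes of the late lists and for 0 genes of each early list. In bulk liver RNA, more cells in mitosis and more RNA per cell cannot be told apart.

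**Figure D2:**
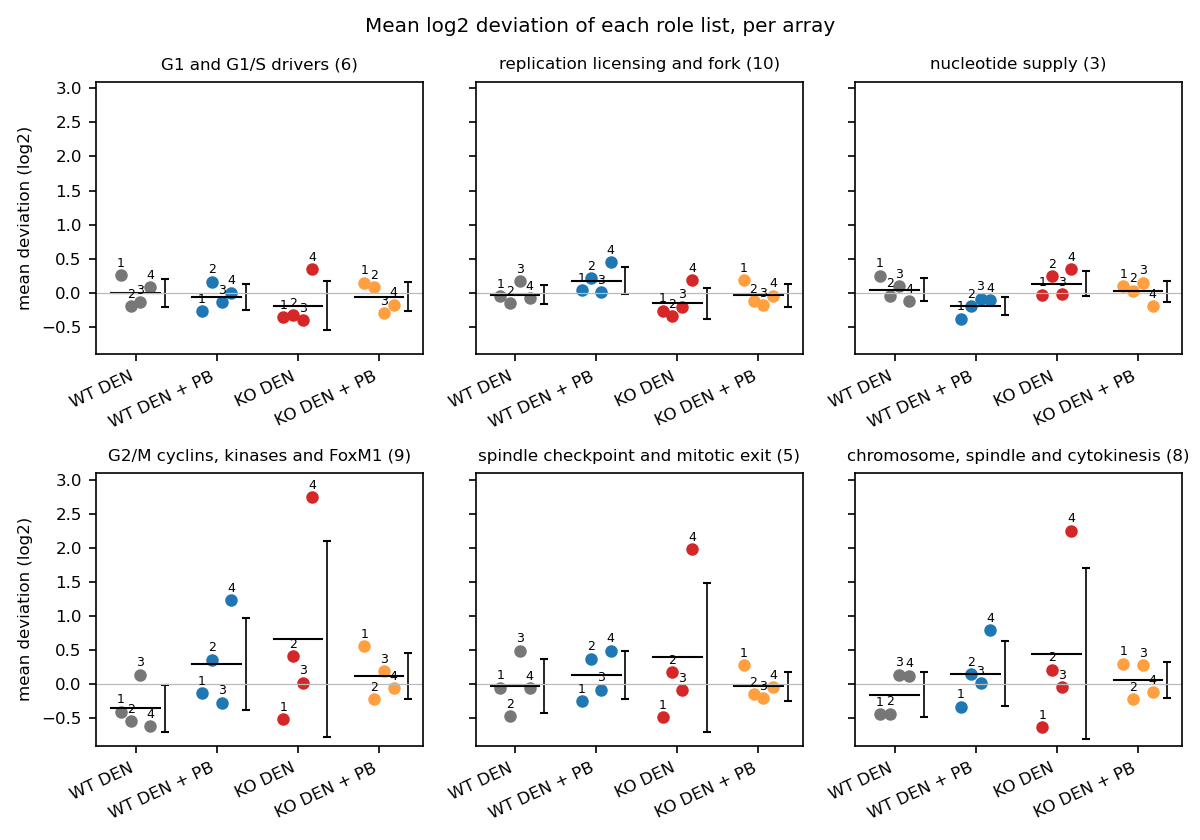
Mean log2 deviation from each member's median (vertical axis) for 6 role lists, with 1 point per array labelled by replicate, the group mean as a line and the SD of 4 arrays as the bar beside it; the number of members is in brackets. Replicate 4 of KO DEN is at 2.75, 1.98 and 2.25 in the late lists and at 0.34, 0.18 and 0.34 in the early lists.

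The second array, WT DEN + PB replicate 4, had a similar order at a smaller size, with a mean deviation of 1.24 for the G2/M genes, 0.80 for the chromosome genes and 0.49 for the checkpoint genes. It differed in the replication list, at 0.45 the highest of the 16 arrays, and with KO DEN replicate 4 set aside it was the highest for 6 of 10 replication genes and 7 of 9 G2/M genes. *Mcm6*, a subunit of the replicative helicase, was at 1.91 on it and at most at 1.29 elsewhere. No test was made of this difference between single arrays. KO DEN replicate 4 shared its slide with KO DEN replicate 3, WT DEN + PB replicate 3 and KO DEN + PB replicate 3, whose means over the members were between -0.12 and -0.00.

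**Figure D3:**
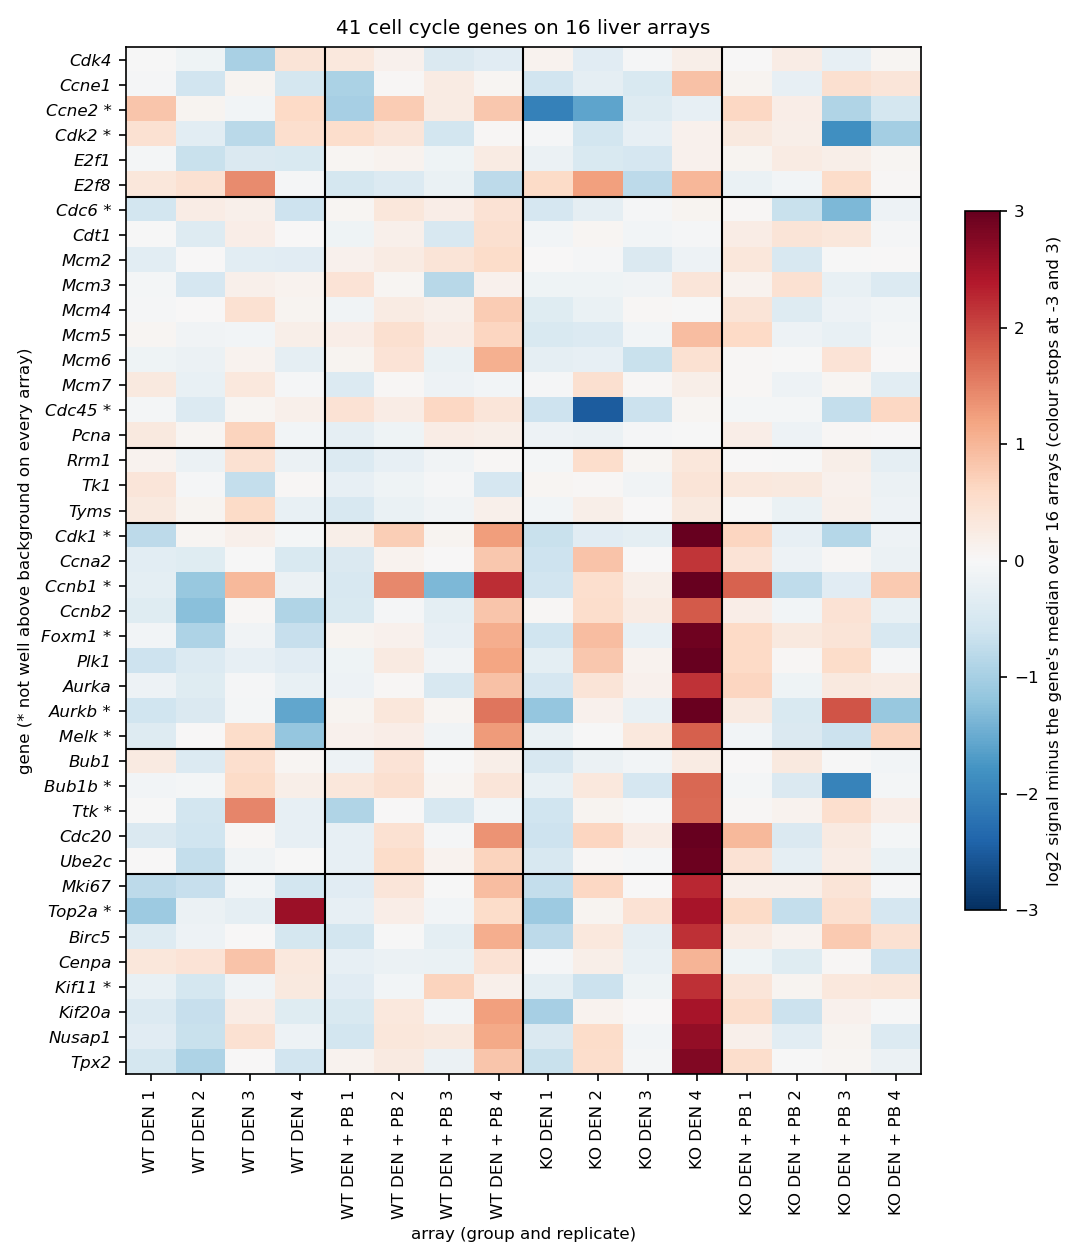
Log2 signal minus the gene's median over 16 arrays (colour, red for above and blue for below) for 41 members in rows, ordered by role, and 16 arrays in columns. The column of KO DEN 4 is red from *Cdk1* downward except for *Bub1*, with values of 1.02 or more above the next array for 17 members, and paler for the genes above *Cdk1*.

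Among the G2/M genes, *Plk1*, the Polo kinase that acts from mitotic entry to cytokinesis, had signals of -3.44, -3.22, -3.05 and -3.14 in WT DEN, and of -2.93, -2.53, -2.91 and -1.63 in WT DEN + PB. In KO DEN it was at -3.09, -1.998, -2.71 and 0.41, and in KO DEN + PB at -2.21, -2.76, -2.26 and -2.85. KO DEN replicate 4 was 4.12-fold above the next array, while KO DEN replicate 1 lay inside the range of WT DEN. Under DEN, KO exceeded WT by a log2 change of 1.36 ± 0.54 (SE), which did not pass (limma adjusted p = 0.164, exact permutation p = 0.0571). The change was 0.61 without KO DEN replicate 4, 0.22 under normexp and 0.60 under normexp without spots with a marked background. The 4 WT DEN + PB arrays lay above the 4 WT DEN arrays, with a log2 change of 0.71 ± 0.54 (limma adjusted p = 0.897, exact permutation p = 0.0286, the smallest that 4 against 4 arrays allow), and the change was 0.42 without WT DEN + PB replicate 4.

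*Ccnb2*, a B cyclin that activates Cdk1, was at -1.51, -2.39, -1.10 and -2.04 in WT DEN and at -1.10, -0.62, -0.89 and 0.71 in KO DEN. In DEN + PB it was at -1.60, -1.19, -1.44 and -0.32 in WT and at -0.94, -1.23, -0.70 and -1.37 in KO. The KO DEN arrays lay above the WT DEN arrays, though replicate 1 of KO and replicate 3 of WT were nearly level. The log2 change under DEN was 1.29 ± 0.38 (limma adjusted p = 0.0714, the lowest of any member in any contrast, exact permutation p = 0.0286), and it was 0.89 without KO DEN replicate 4. Under normexp it was 0.59, and 0.85 without spots with a marked background. Its adjusted p under DEN ran from 0.0558 to 0.670 over the alternatives. *Ccnb1*, the other B cyclin, was well above background on 4 arrays, and all 3 of its probes were highest on KO DEN replicate 4.

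*Foxm1*, the transcription factor of G2/M genes, was at -4.79, -5.64, -4.82 and -5.42 in WT DEN and at -5.30, -3.79, -4.94 and -1.80 in KO DEN. Its log2 change under DEN was 1.21 ± 0.56 (limma adjusted p = 0.234, exact permutation p = 0.229), and the groups overlapped. Without KO DEN replicate 4 the change was 0.49. It turned to -0.21 under normexp background correction, and was 0.26 under normexp without spots with a marked background. *Cdk1*, the kinase of mitotic entry, was at -4.95, -4.62, -4.57 and -1.08 in KO DEN, so that 3 of the 4 KO arrays lay within the WT DEN range of -5.05 to -4.13. In WT DEN + PB it lay between -4.18 and -3.03 and in KO DEN + PB between -5.13 and -3.62, a log2 change of -0.71 ± 0.63 for KO (limma adjusted p = 0.530, exact permutation p = 0.143), which turned to 0.18 under normexp without spots with a marked background. A dimmer *Cdk1* probe, above background on 2 arrays, was 3.01 above the median of the other arrays on KO DEN replicate 4, against 3.25 for the brightest probe, although 1 other array was higher with it (-1.43 against -4.21). *Ccna2*, the cyclin of S phase and G2, was at -3.17, -1.70, -2.54 and -0.41 in KO DEN. There replicate 2 was also above every WT DEN array, the highest of which was at -2.55, and replicate 3 was barely above it.

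**Figure D4:**
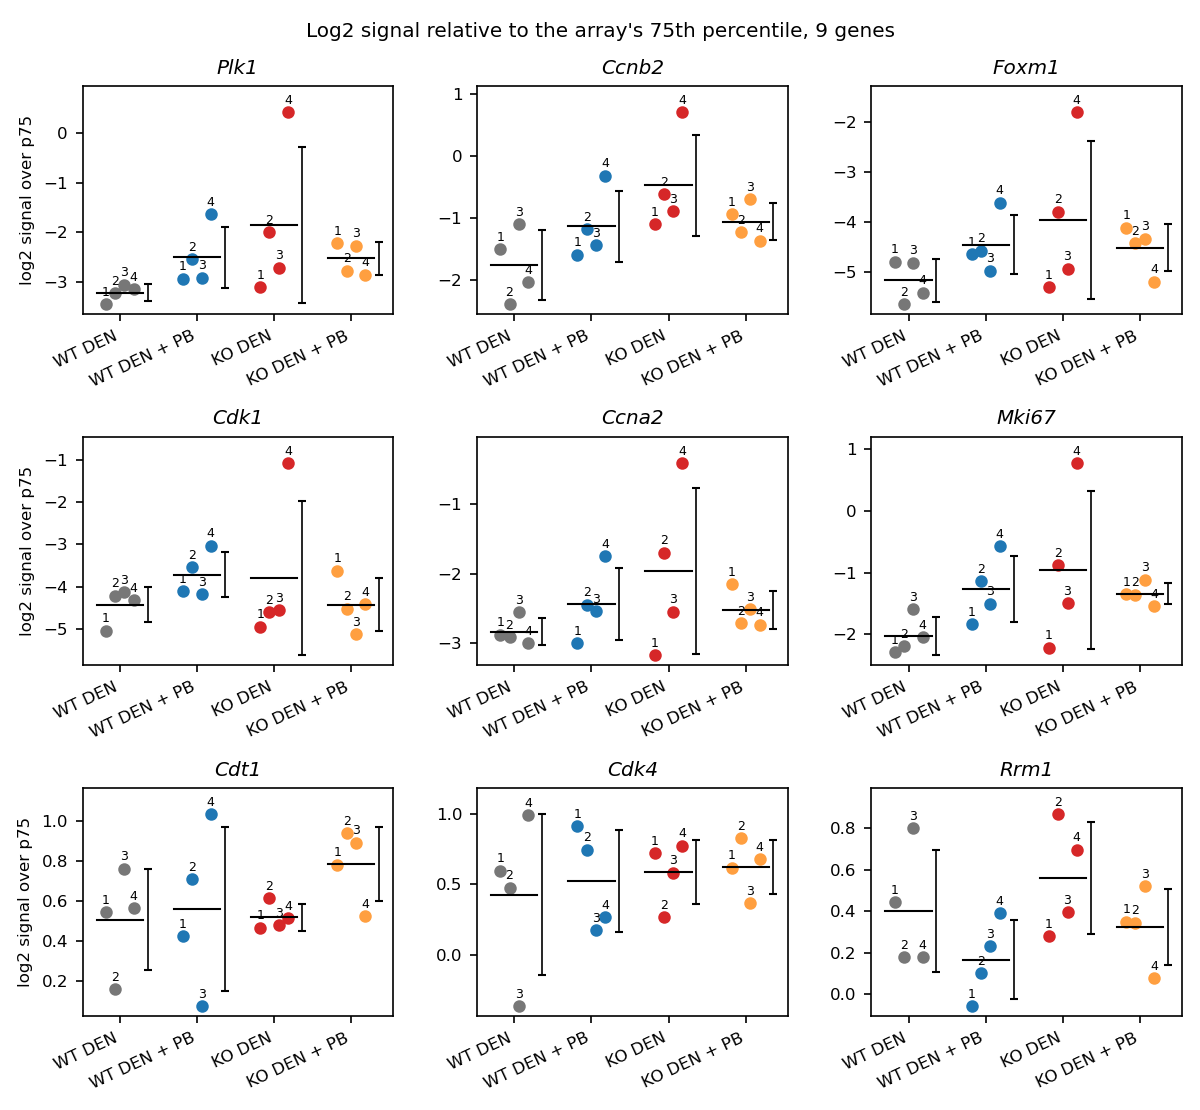
Log2 signal over that of the array's 75th percentile (vertical axis, its own range for each gene) for 9 members on 16 arrays, labelled by replicate, with the group mean as a line and the SD of 4 arrays as a bar. Replicate 4 of KO DEN is the highest point in the panels of *Plk1* (0.41), *Ccnb2* (0.71), *Foxm1* (-1.80), *Cdk1* (-1.08), *Ccna2* (-0.41) and *Mki67* (0.77), and not in those of *Cdt1*, *Cdk4* and *Rrm1*.

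In the spindle checkpoint and mitotic exit list, *Ube2c*, the ubiquitin-conjugating enzyme of the anaphase-promoting complex, was at -0.35 on KO DEN replicate 4 and between -4.00 and -2.63 on the other 15 arrays. *Cdc20*, which activates that complex, was at 1.80 against at most -0.15. Both were highest on WT DEN + PB replicate 4 among those 15. *Bub1b*, a checkpoint kinase-like protein, was at -4.38, -4.25, -4.67 and -4.36 in WT DEN + PB and at -4.77, -5.15, -6.73 and -4.79 in KO DEN + PB. The arrays of the groups did not overlap, and the log2 change of -0.95 ± 0.44 did not pass (limma adjusted p = 0.212, exact permutation p = 0.0286), being -0.49 without KO DEN + PB replicate 3. *Bub1b* was well above background on 4 of 4 of the WT arrays and 1 of 4 of the KO arrays compared, so this difference sets detected signal against values mostly at background. Its PB effect in KO was -0.96 ± 0.44 (limma adjusted p = 0.391, exact permutation p = 0.286), and -0.50 without KO DEN replicate 4. There *Bub1b* was well above background on 3 of 4 arrays with DEN and 1 of 4 with DEN + PB. It passed the filter only through WT, and the size of this change is limited by the background too. Under normexp fitted without spots with a marked background, the fitted changes were 0.08 in both of these comparisons. The brightest probe of *Bub1*, a checkpoint kinase, was 0.24 above the median of the other arrays on KO DEN replicate 4, and a dimmer probe, above background on 6 arrays, was 1.82 above it, so that the 2 probes disagreed.

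In the chromosome, spindle and cytokinesis list, *Mki67*, which encodes the proliferation antigen Ki-67, was at -2.29, -2.19, -1.59 and -2.05 in WT DEN and at -1.84, -1.14, -1.50 and -0.57 in WT DEN + PB. In KO DEN it was at -2.22, -0.88, -1.50 and 0.77, and in KO DEN + PB between -1.54 and -1.11. KO DEN replicate 4 was again the highest and WT DEN + PB replicate 4 the next. The PB effect in WT was 0.76 ± 0.45 (limma adjusted p = 0.818, exact permutation p = 0.0571) and the difference of KO from WT under DEN was 1.07 ± 0.45 (limma adjusted p = 0.190, exact permutation p = 0.143). The first was 0.27 under normexp, and 0.38 under normexp without spots with a marked background. The second was 0.50 without KO DEN replicate 4. A second probe of *Mki67* was 2.12 above the next array on KO DEN replicate 4. *Tpx2*, which activates Aurora A on the spindle, was at -1.48 there and at -3.41 or lower elsewhere, with a PB effect in WT of 0.77 ± 0.51 (limma adjusted p = 0.859, exact permutation p = 0.0571) that was 0.03 under normexp. *Nusap1*, a spindle protein, was at -1.49 there and at -2.98 or lower elsewhere, and its PB effect in KO was -0.79 ± 0.51 (limma adjusted p = 0.619, exact permutation p = 0.371), or -0.13 without that array and -0.06 under normexp.

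*Top2a*, the topoisomerase that untangles sister chromosomes, did not follow the others. Its brightest probe was at -2.53 on WT DEN replicate 4 and at -2.61 on KO DEN replicate 4, with the other 14 arrays at -4.51 or lower. On WT DEN replicate 4, the G2/M genes had a mean deviation of -0.62, the lowest of the 16 arrays. The second *Top2a* probe was well above background on 0 arrays.

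Among members well above background on all 16 arrays, the range from the lowest to the highest array had a median of 1.11 (log2) for 15 genes of the early lists and 3.101 for 13 genes of the late lists, with overlap between 0.88 to 2.21 and 1.00 to 3.92. *E2f8*, a repressor among the E2F factors, was at -1.92, -1.80, -0.83 and -2.28 in WT DEN and at -2.79, -2.66, -2.46 and -3.04 in WT DEN + PB, without overlap. Its log2 change with PB in WT was -1.03 ± 0.37 (limma adjusted p = 0.417, exact permutation p = 0.0286). In KO it was at -1.67, -1.02, -3.04 and -1.25 under DEN and between -2.45 and -1.71 under DEN + PB, and KO exceeded WT under DEN + PB by 0.56 ± 0.37 (limma adjusted p = 0.392, exact permutation p = 0.0286). Under normexp the first of these changes was -0.43 and the second 0.03, and the second was 0.22 with the unscaled table. Normexp without spots with a marked background gave -0.52 and 0.34. WT DEN + PB replicate 4, second for the mitotic genes, had the lowest *E2f8* signal of the 16 arrays, nearly level with KO DEN replicate 3.

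*Mcm2*, a subunit of the replicative helicase, was at -1.58, -1.25, -1.58 and -1.62 in WT DEN and at -1.14, -1.02, -0.88 and -0.71 in WT DEN + PB. The groups did not overlap, and the log2 change of 0.57 ± 0.18 did not pass (limma adjusted p = 0.252, exact permutation p = 0.0286). In KO the DEN arrays lay between -1.71 and -1.25 and the DEN + PB arrays between -1.75 and -0.93, a log2 change of 0.12 ± 0.18. *Mcm2* was chosen after its values were seen.

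*Cdc45*, a subunit of the replicative helicase, was at -4.25, -6.13, -4.28 and -3.57 in KO DEN, and was not well above background on 1 of the 16 arrays. Its PB effect in KO was 0.87 ± 0.40 (limma adjusted p = 0.388, exact permutation p = 0.286), and 0.35 without KO DEN replicate 2 and 0.31 under normexp. *Cdt1*, which loads the helicase on origins, lay between 0.07 and 1.03 over all 16 arrays, and KO DEN replicate 4 was at 0.52, rank 11. *Cdk4*, the partner of the D cyclins, lay between -0.37 and 1.00, with WT DEN replicate 3 the lowest. *Rrm1*, the large subunit of ribonucleotide reductase, lay between -0.06 and 0.87. For these 3 genes the log2 changes in the 4 comparisons of 2 groups were between -0.24 and 0.27, and the groups overlapped in each.

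The members were then compared between the groups by the fit over all probes. To be called, a gene had to change by at least 1.5-fold at a Benjamini-Hochberg adjusted p under 0.05. For PB in WT, limma called 0 of the 33 members tested, against 0.737% of all 13302 genes tested, and 4 members had an unadjusted p under 0.05 (8.31% of all genes did), *E2f1* and *Mcm2* higher and *E2f8* and *Cenpa* lower. For PB in KO it called 0 members against 2.13% of genes, and 3 had an unadjusted p under 0.05 (against 13.3%). These were *E2f1* and *Cdc45*, higher, and *Bub1b*, which passed the filter only through WT, lower. In the test of the difference between the PB effects, WT minus KO, it called 0 members and 0% of genes, and *Ccnb2* alone had an unadjusted p under 0.05 (against 6.62%). A fit without moderation of the variances also called 0 members in every comparison.

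For KO against WT under DEN, limma called 0 members against 2.76% of genes, and 6 had an unadjusted p under 0.05 (against 18.2%), *Ccnb2*, *Foxm1*, *Plk1*, *Mki67* and *Tpx2* higher and *Cdc45* lower in KO. Under DEN + PB it called 0 members against 7.6% of genes, and *Bub1b* alone had an unadjusted p under 0.05 (against 23.4%). In each of the 5 comparisons the count of members at an unadjusted p under 0.05 was near or below what the share of all genes gives for 33. WT DEN and WT DEN + PB, and likewise the KO groups, enter more than 1 of these comparisons, so their values are not independent.

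The median log2 change over the 41 members, dim ones included, moved with single arrays. For PB in WT it was 0.33 (-0.06 over all genes), and 0.18 without WT DEN + PB replicate 4. For PB in KO it was -0.28 (0.06 over all genes), and 0.15 without KO DEN replicate 4. The difference of these effects was 0.33 (-0.10 over all genes), 0.01 without KO DEN replicate 4 and -0.10 without both arrays. For KO against WT it was 0.16 under DEN (-0.02 over all genes) and 0.02 without KO DEN replicate 4, and -0.09 under DEN + PB (0.10 over all genes) and 0.08 without WT DEN + PB replicate 4. Normexp also turned the sign in 3 of these 4 comparisons of 2 groups, to -0.03 for PB in WT, 0.04 for PB in KO and -0.17 for KO against WT under DEN. With marked backgrounds left out as well, the medians were 0.03, 0.05 and 0.05, and that under DEN + PB turned to 0.14. The median of all genes moved too under normexp, to -0.10, 0.14 and -0.29, and to -0.14 under DEN + PB. Relative to all genes, the member medians kept their signs under normexp, at 0.07, -0.10, 0.12 and -0.04 in the same order. They were 0.09, -0.09, 0.10 and -0.04 with marked backgrounds left out.

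By role, the G2/M genes had a median of 1.09 for KO against WT under DEN, with 9 of 9 above 0, and 0.28 without KO DEN replicate 4, with 8 of 9 still above 0 when both arrays were left out. For PB in KO the G2/M median was -0.58 with 0 of 9 above 0, and 0.16 without KO DEN replicate 4. For PB in WT it was 0.63 with 9 of 9 above 0, and 0.35 without WT DEN + PB replicate 4. The 9 genes were measured on the same arrays and are not replicates of a condition, and the share of all genes above 0 was not computed. Of the 6 G2/M genes tested, 0 had an unadjusted limma p under 0.05 for PB in WT, and 3 did for KO against WT under DEN. The chromosome genes went from 0.67 to 0.02 under DEN without KO DEN replicate 4, and the checkpoint genes from 0.18 to -0.29. The replication genes, at -0.00 for KO against WT under DEN, were at -0.18 without that array.

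**Figure D5:**
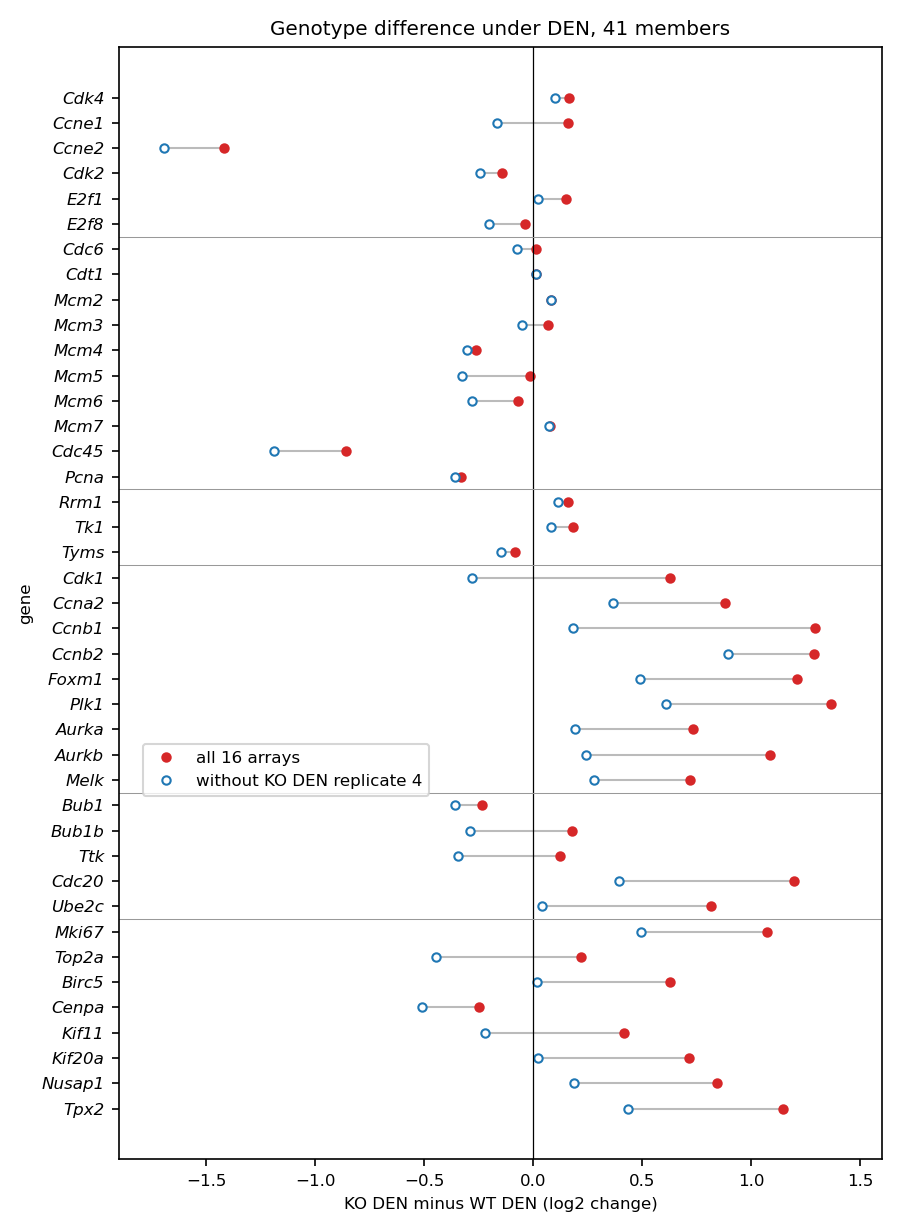
Log2 change of KO against WT under DEN (horizontal axis) for 41 members in rows by role, with all 16 arrays (filled red) and without KO DEN replicate 4 (open blue), joined by a line. *Plk1* moves from 1.36 to 0.61 and *Cdk1* from 0.63 to -0.28, while *Cdt1* and *Mcm2* hardly move.

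Of the 4 slides, slide 2 was without KO DEN and slide 4 without WT DEN. Within slides, the member median for PB in WT was 0.29, 0.67 and -0.25 on slides 1, 2 and 3, and its difference from the median of all genes was 0.39, 0.47 and 0.15. For PB in KO the member median was -0.14, 0.28 and -0.59 on slides 1, 3 and 4, or -0.14, 0.14 and -0.80 relative to all genes. For KO against WT under DEN it was 0.26 and -0.66 on slides 1 and 3, or 0.26 and -0.31 relative to all genes. Under DEN + PB it was -0.33, -0.25, 0.04 and 0.23 on slides 1 to 4, or -0.40, -0.28, -0.10 and -0.01 relative to all genes. Relative to all genes, the sign thus differed between slides for PB in KO and for the genotype difference under DEN, and was the same on each slide in the other comparisons of 2 groups. No within-slide value was computed for the difference of PB effects.

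Markers of other cell types were measured beside the members. On KO DEN replicate 4 the mean deviation of the 7 hepatocyte markers was 0.05 (rank 9 of 16), of 9 T and NK cell markers 0.08 (rank 6), of 10 macrophage and myeloid markers -0.09 (rank 9), of 8 B and plasma cell markers 0.39 (rank 4) and of 7 erythroid markers 0.29 (rank 3). It was -0.59 (rank 15) for 7 endothelial, -0.01 (rank 8) for 7 stellate and fibroblast, 0.40 (rank 6) for 5 cholangiocyte and -0.15 (rank 12) for 4 oncofetal and tumour hepatocyte markers, among them *Afp* and *Gpc3*. By mean deviation, no list of these markers was highest on this array. By summed signal, in multiples of the 75th percentile, the cholangiocyte list was highest there, at 36.5, with WT DEN + PB replicate 4 next at 35.5. *Spp1* and *Sox9* ranked 1 and 2 there, and *Krt19*, *Krt7* and *Epcam* ranked 7, 7 and 12. Of the oncofetal markers, *Gpc3* ranked 2, and *Afp*, *Igf2* and *Cd24a* ranked 11, 12 and 14. On WT DEN + PB replicate 4 the stellate and fibroblast list (0.79) and the oncofetal list (0.70) ranked 1, the cholangiocyte (0.80) and endothelial (0.51) lists ranked 2, and the hepatocyte list (-0.31) ranked 15. The macrophage and myeloid list was lower in KO, with 3 of 10 markers called lower under DEN and 9 of 10 under DEN + PB. Of all genes tested, 2.76% and 7.6% were called in these comparisons, in either direction. The summed signal of this list, in multiples of the 75th percentile, ran from 38.8 to 143 in WT DEN and 47.5 to 57.7 in WT DEN + PB. It ran from 34.2 to 44.6 in KO DEN and 23.8 to 51.8 in KO DEN + PB. Of the endothelial markers 2 of 7 were called lower in KO under DEN and 3 of 7 under DEN + PB. Under DEN + PB, 3 of 8 B and plasma cell, 3 of 5 cholangiocyte and 2 of 7 stellate and fibroblast markers were also called lower in KO. So was *Cd24a*, while *Tat* was called higher, and of 7 erythroid markers 1 was called higher and 1 lower. *Cd3g* was called lower under DEN. With PB, *Krt19* and *Krt7* were called higher in WT (0.737% of all genes were called), and *Ms4a1*, *S100a8* and *S100a9* lower in KO (2.13%). The part of these cells in the members' signals was not tested.

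Of 112 further cell cycle genes with a probe, listed apart from the members, 98 were tested. limma called 2 of them (2.04%) for PB in KO, 3 (3.06%) for KO against WT under DEN and 2 (2.04%) under DEN + PB, shares near or below the 2.13%, 2.76% and 7.6% of all genes. *Cdkn2b*, an inhibitor of Cdk4 and Cdk6, was between -1.96 and -1.58 in WT DEN and between -2.84 and -2.10 in KO DEN, and it fell by 0.69 ± 0.18 in KO (limma adjusted p = 0.0493). Under DEN + PB it was between -1.73 and -1.28 in WT and between -3.01 and -2.43 in KO, a log2 change of -1.22 ± 0.18 (limma adjusted p = 0.000836). *Cdk7*, the CDK-activating kinase, changed by -0.93 ± 0.22 in KO under DEN (limma adjusted p = 0.0292), from between 0.14 and 0.52 to between -1.40 and -0.23. *Cks1b*, a CDK subunit, rose with PB in KO by 0.73 ± 0.17 (limma adjusted p = 0.0377), from between 0.90 and 1.21 to between 1.57 and 2.07.

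*Wee1*, the kinase that restrains Cdk1, was called lower in KO under DEN and higher with PB in KO, but it was detected in 1 of the 4 KO livers under DEN. *Chek2*, a DNA damage checkpoint kinase, was called lower in KO under DEN + PB, where it was detected on 1 of 4 KO arrays. Both genes passed the filter on low signals through groups where they were high, so these calls set detected signal against values at background, and no size is given. limma called 0 of the 98 genes tested for PB in WT, where 8 had an unadjusted p below 0.05, and 0 for the difference of PB effects, where 6 did. Of the further mitosis genes 29 of 40 were tested, and of the further replication genes 27 of 28, and limma called none of those tested in any comparison. The 40 mitosis genes are not members, but they too were listed with earlier results of these data known. Dim ones included, they had a mean deviation of 1.79 on KO DEN replicate 4 and 0.82 on WT DEN + PB replicate 4. On the other 14 arrays it was at most 0.51. The 28 replication genes were at 0.08 on KO DEN replicate 4 and 0.24 on WT DEN + PB replicate 4. WT DEN replicate 3 was the highest for them with 0.34.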

How the data were processed

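RNA of 16 mouse livers, 4 per group, was hybridised to 16 one-colour arrays. The authors extracted signals with Feature Extraction 12.0.3.1, and the deposited processed signal is a linear intensity, corrected for background and not scaled between arrays. Normalization before their own test is not given in the sources used here.

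Outlier spots were left out, spots of a probe were averaged, and log2 values were set against each array's 75th percentile. A RefSeq table (GRCm38.p6) gave symbols to 28223 of 41174 probes. Tested were the 24455 probes detected throughout some group. Group means were fitted with limma 3.58.1 in R 4.3.3, with a shared estimate of each probe's spread over all groups and with Benjamini-Hochberg adjustment. Permutation tests were exact and two-sided, over 70 assignments. The fit was tested on simulated data. Precision is limited by the number of mice.

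Members described array by array were the 3 tested members with the largest change per comparison and the first of each role list detected on all arrays, and others were added as examples after their values were seen. Members and lists were chosen with earlier results of these data known. Alternatives were quantile normalization, normexp (offset 50, on the median signal, as the files used here held no mean signal), the deposited table of intensity values, other probe rules, no moderation, slide or replicate block, and each array left out.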

Additional observations from a re-analysis of the deposited data

Results flagged for a closer look

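In a group of 4 arrays, a value was singled out where the gap between the highest or lowest array and its nearest neighbour took up a larger share of the group's range than Dixon's critical value. This occurred in 8 of 164 tests of single members, and chance gives about 1 in 20. On KO DEN replicate 4, *Mcm3* (0.961), *Cdk1* (0.901) and *Ube2c* (0.844) were high, as was the mean of the G1 and G1/S drivers (0.904). On WT DEN + PB replicate 4, *Cenpa*, a centromere histone, was high (0.885). In WT DEN, *Mcm2* was high (0.901) and *Ube2c* low (0.843) on replicate 2, and *Cenpa* was high on replicate 3 (0.852). In KO DEN + PB, *Mcm6* was high on replicate 3 (0.922). That share is given in brackets. For *Mcm3* the difference was small, as the other 3 KO DEN arrays lay between -2.41 and -2.40 and replicate 4 at -1.93. The means of the 3 mitotic lists on KO DEN replicate 4 were not past the critical value.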

How the results depend on the processing

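0 members were called in each of the 5 comparisons under the main setting and under every alternative run, with all arrays or with any left out. When single arrays were left out, the member median ran from 0.18 to 0.44 for PB in WT, from -0.37 to 0.15 for PB in KO, from 0.01 to 0.52 for the difference of PB effects, from 0.02 to 0.32 for KO against WT under DEN and from -0.27 to 0.08 under DEN + PB. Leaving out both arrays with the highest means, chosen after seeing the data, gave 0.15 for PB in KO and -0.10 for the difference. That difference was -0.0685 under normexp, 0.73 with the deposited table without scaling and -0.0474 under normexp fitted without spots with a marked background, an alternative also added after seeing the data. The median of all genes for the difference was -0.22 under normexp, which changes the background correction and the signal used, and 0.30 with the table, which leaves out the scaling. Relative to all genes, the member median for the difference was 0.44 in the main setting and with the table, 0.15 under normexp and 0.14 under normexp without marked backgrounds.

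The mean over members on KO DEN replicate 4 was 0.55 under normexp (rank 3) and 0.58 without marked backgrounds (rank 1), and between 1.02 and 1.53 (rank 1) under the other alternatives. The lowest median signal minus local background was -25398 in WT DEN (replicate 2) and -32066.5 in WT DEN + PB (replicate 2), and the cause of the lower means was not tested. Under normexp, *Bub1b* for PB in KO was at 0.0875 and *Foxm1* under DEN at -0.21. Without marked backgrounds, *Bub1b* was at 0.0838 for PB in KO and at 0.0848 under DEN + PB. *Cdk1* was then at 0.18 under DEN + PB, and *Foxm1* at 0.26 under DEN. Same-numbered arrays deviated with correlations between -0.21 and 0.36, over 0.1 in 6 of 24 pairs. For differently numbered arrays they were between -0.49 and 0.54, over 0.1 in 20 of 72 pairs. The numbers were therefore not used as pairs in the main fit, and whether they mark a shared handling of the mice was not tested. With the replicate block, 0 members were called and the median for PB in WT was 0.33, as without it.

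On arrays where a member was not well above background, its value is limited by the background, which touches *Cdk1*, *Foxm1*, *Bub1b*, *Cdc45* and *Top2a* among the members tested.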

Other observations

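On KO DEN replicate 4, 132 genes had a signal at least 2-fold above the next array, among genes well above background there. They included 17 members, 17 of the further cell cycle genes and 98 genes of neither list. On the other 15 arrays between 20 and 358 genes did so, with 0 members on each. For the 23 members with their highest signal on KO DEN replicate 4, no other array could meet this rule. Among the further cell cycle genes were *Kif23* (2.13 above the next array on the log2 scale), a motor of cytokinesis, *Cenpf* (1.96), a kinetochore protein, *Cdkn3* (1.95), a phosphatase of Cdk2, and *Stmn1* (1.13), a regulator of microtubules. The largest excesses were outside the cell cycle lists, *Abca17* (4.86), *Tex48* (4.75) and *Ccnb1ip1* (4.17), and no test applies to a single array.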
